A study of Mus musculus with 6 samples.

Results

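The Aurora kinases, the chromosomal passenger complex and their partners Tpx2 and Plk1 were examined in fully grown mouse oocytes, comparing XY with XX females. The members were all probe sets that the platform annotation assigns to 1 gene symbol among Aurka, Aurkb, Aurkc, Incenp, Birc5, Cdca8, Tpx2 and Plk1. These came to 19 of 45037 probe sets and 8 of 18193 genes. A probe set is a group of short probes on the array that reads 1 transcript, and a gene can have several. The tested oocytes, 3 samples labelled as biological replicates, came from XY females of B6.Y(TIR). These are C57BL/6 mice whose Y chromosome, of Tirano origin, lets XY animals develop as females. The comparison oocytes, also 3 samples labelled as biological replicates, came from their XX littermates. All females were aged 25 to 29 days and had received 5 IU of equine chorionic gonadotropin 45 to 47 hours before collection. Each sample held RNA of 10 oocytes stripped of cumulus cells, at the germinal vesicle (GV) stage, when the meiotic nucleus is still intact. The RNA was primed with oligo(dT), amplified over 2 cycles and hybridised to Affymetrix arrays whose probes lie near the 3' end of transcripts. XY oocytes both carry a Y and lack the other X, and these differences cannot be told apart in the 6 arrays. The genes lie on chromosomes 2 (Aurka and Tpx2), 4 (Cdca8), 7 (Aurkc and Plk1), 11 (Aurkb and Birc5) and 19 (Incenp).

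Aurora kinases are serine/threonine kinases of cell division that are switched on by binding partners. Aurora A works at spindle poles with its activator TPX2, whereas Aurora B and Aurora C work on chromosomes within the passenger complex, in which INCENP is the scaffold and survivin (Birc5) and borealin (Cdca8) bring the complex to the centromere. Aurora C is largely restricted to germ cells, and in mouse oocytes it takes over most of the passenger role. Polo-like kinase 1 (Plk1) acts beside them in spindle assembly and in meiotic resumption. The GV oocyte is largely silent in transcription, so these mRNAs are a store that is translated as meiosis resumes.

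In proliferating cells many of these genes are switched on late in the cell cycle through promoter elements that include a CCAAT box and the cell cycle homology region, whose core reads TTTGAA. RefSeq start sites (GRCm38.p6) gave a window of 250 bases before to 50 bases after the start for 5 of the 8 genes. The windows of Aurka at chr2:172370521-172370820 (minus strand), Plk1 at chr7:122159185-122159484 (plus strand) and Cdca8 at chr4:124936868-124937167 (minus strand) each held 1 TTTGAA, at 33, 31 and 14 bases after the start site. The window of the germ cell kinase gene Aurkc at chr7:6995135-6995434 (plus strand) held none. They are shown so that the shared element can be seen, 5′ to 3′ along the gene, with TTTGAA and CCAAT in capitals on either strand (CCAAT on the opposite strand reads ATTGG). In Cdca8 the TTTGAA shares its last base with an ATTGG.
Aurka: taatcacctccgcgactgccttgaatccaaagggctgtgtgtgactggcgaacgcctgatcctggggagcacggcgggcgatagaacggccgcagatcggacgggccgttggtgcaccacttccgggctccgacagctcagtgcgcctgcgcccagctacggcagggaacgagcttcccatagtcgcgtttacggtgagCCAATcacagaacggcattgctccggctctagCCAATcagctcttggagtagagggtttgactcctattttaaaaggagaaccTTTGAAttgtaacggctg
Plk1: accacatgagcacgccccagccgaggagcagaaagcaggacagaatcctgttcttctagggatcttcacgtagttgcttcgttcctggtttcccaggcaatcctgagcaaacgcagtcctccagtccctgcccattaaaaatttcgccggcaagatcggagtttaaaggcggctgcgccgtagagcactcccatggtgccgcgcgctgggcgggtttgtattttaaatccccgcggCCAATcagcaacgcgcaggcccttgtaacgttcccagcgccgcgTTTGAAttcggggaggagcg
Cdca8: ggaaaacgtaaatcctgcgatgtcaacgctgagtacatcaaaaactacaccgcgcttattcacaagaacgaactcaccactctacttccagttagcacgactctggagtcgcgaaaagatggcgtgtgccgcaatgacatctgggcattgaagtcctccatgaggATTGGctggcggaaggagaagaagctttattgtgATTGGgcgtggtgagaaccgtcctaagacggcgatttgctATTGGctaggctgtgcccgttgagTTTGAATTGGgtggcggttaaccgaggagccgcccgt
Aurkc: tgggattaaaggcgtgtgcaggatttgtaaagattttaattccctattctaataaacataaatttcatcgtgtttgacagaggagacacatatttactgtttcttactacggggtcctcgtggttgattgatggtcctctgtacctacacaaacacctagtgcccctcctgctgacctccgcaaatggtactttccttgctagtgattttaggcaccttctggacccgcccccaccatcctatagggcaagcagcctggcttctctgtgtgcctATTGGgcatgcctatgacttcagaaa
Aurka held 2 CCAAT boxes, at 51 and 19 bases before the start site. Plk1 held 1, at 14 bases before it, and Cdca8 held 4. In Aurkc 1 CCAAT lay 25 bases after the start site. The Birc5 window held neither element. Of all 32851 RefSeq promoter windows of this length, 17.9% held TTTGAA, 37.4% held CCAAT and 6.95% held both. A match describes the letters in the window, and the expression values below do not bear on whether a factor binds there.

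The 6 arrays were not alike before normalization. The mean deposited intensity, without the top and bottom 2% of probe sets, was 194 to 262 in XY and 207 to 332 in XX. Intensities were therefore quantile-normalized, and levels below are log2(normalized intensity + 9) unless called deposited. XX replicate 1 (XX 1) correlated with XX 2 and XX 3 at 0.961 to 0.962 over 22997 probe sets, while XX 2 and XX 3 correlated at 0.979 and the XY arrays at 0.975 to 0.977. The log2 ratio of 3' to 5' signal of the Actb control, a measure of RNA integrity, was 5.90, 5.20 and 5.61 in XY 1, XY 2 and XY 3, against 5.53, 3.87 and 4.0 in XX 1, XX 2 and XX 3. XX 1 thus lay among the XY arrays (difference of means 1.10, exact two-sided permutation p = 0.2, where 3 against 3 cannot go below 0.1). All 12 oocyte markers passed the filter on low values, among them Zp3 and Gdf9, and 1 passed the test: Bmp15, an X-linked oocyte growth factor, fell by 1.34 on the log2 scale (limma adjusted p = 0.0140). The changes of Gdf9, Zp1, Zp2, Zp3, Nlrp5, Ooep, Zar1, Kit and Nobox were negative too, at -0.46 to -0.04, and those of Oosp1 and Figla were 0.11 and 0.40. Deposited intensities of 13 granulosa and cumulus markers summed to 1330 to 1905 in XY and 1436 to 1835 in XX, and 3 of the 13, including Amh, did not pass the filter on low values. Nr5a2 held the largest part of that sum, at 552 to 810 in XY and 762 to 1110.2 in XX. Inha, an inhibin subunit of granulosa cells, was at 270, 176 and 154 in XY and 114, 51.8 and 38.1 in XX, without overlap (log2 change 1.58, limma adjusted p = 0.0539, and 0.0475 with 1 row per gene). Kitl, another marker of that list, went the other way, without overlap after normalization (log2 change -0.63, limma adjusted p = 0.0866). Nr5a2 and Inhbb had negative changes too (-0.16 and -0.07). Fshr, Amhr2, Hsd17b1, Cyp11a1, Foxl2 and Has2 had positive ones, from 0.06 to 0.89. The 9 theca and stroma markers summed to 368 to 612 in XY, against 180 to 263 in XX, and 5 of them, including Col1a1 and Cyp17a1, did not pass the filter. The 5 blood markers summed to 150 to 154 in XY and 103 to 138 in XX, and the 4 endothelial markers to 224 to 300 in XY and 212 to 377 in XX.

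The mRNAs of the 3 Aurora kinases, the 3 further passenger subunits and Plk1 did not pass the test between XY and XX oocytes, and the clearest difference in the family was that of Tpx2. Probe sets dimmer than the array median on more than 3 of the 6 arrays were not tested, which left 15 of the 19 and all 8 genes. limma's moderated test with Benjamini-Hochberg adjustment over all 22997 such probe sets called 1 of the 15, a Tpx2 probe set, higher in XY and 0 lower. The same test called 10.5% of all tested probe sets, 5.08% higher and 5.41% lower. Of the 15, 3 had an unadjusted p under 0.05 and 6 had groups that did not overlap, where 30.3% and 36.6% of all tested probe sets did. Taking the brightest tested probe set for each gene, 0 of the 8 genes passed at an adjusted p of 0.05, where 10.9% of 12442 genes did, and 1 of 8 had an unadjusted p under 0.05, where 30.7% of all genes did. The 8 genes had a median log2 change, XY minus XX, of 0.08, beside 0.07 for all genes. With 1 row per gene in the fit, 1 of the 8 passed, Tpx2, where 13.2% of genes did and 7.86% were called higher.

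**Figure D1:**
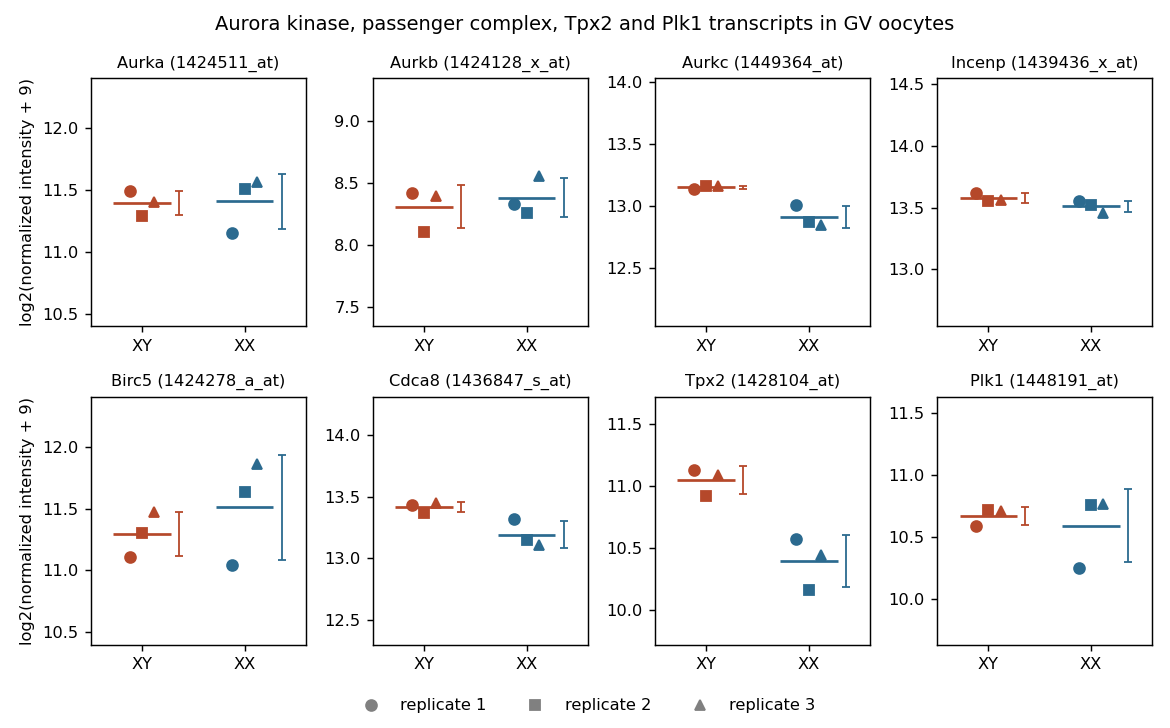
Level of the 8 genes, as log2(normalized intensity + 9), in the 3 XY arrays (red, left) and the 3 XX arrays (blue, right), for the brightest probe set of each. Points are arrays with 1 shape per replicate number, horizontal lines are means, bars are the SD, and every panel spans 2 log2 units; XX 1 is the lowest array for Aurka, Birc5 and Plk1, and XY lies above XX without overlap for Aurkc, Cdca8 and Tpx2.

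Aurka, the spindle pole kinase that TPX2 activates, had levels of 11.49, 11.29 and 11.40 in XY oocytes and 11.15, 11.51 and 11.56 in XX oocytes. The groups overlapped: XX 1 was the lowest of the 6 arrays, and XX 2 and XX 3 were the highest. The log2 change was -0.01 ± 0.18 (SE, 95% interval -0.43 to 0.40, limma adjusted p = 0.964). A second Aurka probe set, 1440129_at, was under the filter, with deposited intensities of 3.58 to 7.90 in XY and 1.65 to 5.67 in XX.

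Aurkb, the passenger kinase of dividing somatic cells, was read by a pair of probe sets designed from the same source sequence. The brighter, 1424128_x_at, had levels of 8.42, 8.11 and 8.40 in XY and 8.33, 8.26 and 8.56 in XX. Its groups overlapped, with a log2 change of -0.07 ± 0.17 (SE, 95% interval -0.48 to 0.33, limma adjusted p = 0.805). The other, 1451246_s_at, had levels of 7.57, 7.11 and 7.18 in XY and 7.35, 7.69 and 7.80 in XX. There XX 2 and XX 3 were above every XY array and XX 1 was not, and the change was -0.33 ± 0.20 (SE, adjusted p = 0.318).

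Aurkc, the germ cell kinase, had deposited intensities of 9576, 7228 and 7941 in XY and 7837, 8319 and 8937 in XX. After normalization its levels were 13.14, 13.16 and 13.16 in XY and 13.01, 12.87 and 12.85 in XX. After normalization every XY array was above every XX array. Groups were separate in this way for 3 of the 8 genes (Aurkc, Cdca8 and Tpx2) and for 38.8% of all genes. The log2 change was 0.24 ± 0.15 (SE, 95% interval -0.10 to 0.59), which did not pass (limma adjusted p = 0.304). The deposited values of the groups overlapped, and without further scaling the change was -0.03 (adjusted p = 0.962), so its direction rests on the normalization.

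Plk1, the polo-like kinase, had levels of 10.59, 10.72 and 10.71 in XY and 10.25, 10.76 and 10.77 in XX. As with Aurka, XX 1 was the lowest array and XX 2 and XX 3 lay above every XY array. The log2 change was 0.08 ± 0.19 (SE, 95% interval -0.37 to 0.54, limma adjusted p = 0.802), and without XX 1 it was -0.09 (adjusted p = 0.650).

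Incenp, the scaffold whose C-terminal IN-box binds and activates Aurora B and Aurora C, had 5 probe sets, of which 2 passed the filter. The brighter, 1439436_x_at, had levels of 13.62, 13.55 and 13.56 in XY and 13.55, 13.52 and 13.46 in XX. The groups overlapped, and the change was 0.07 ± 0.15 (SE, 95% interval -0.27 to 0.41, limma adjusted p = 0.773). The dimmer, 1423092_at, had levels of 9.54, 9.51 and 9.64 in XY and 9.39, 9.47 and 9.48 in XX, with a change of 0.11 ± 0.15 (adjusted p = 0.640). Its groups did not overlap, although the difference was small. The remaining 3 were dim, with deposited intensities of 2.02 to 15.8 in XY and 3.93 to 28.9 in XX, and in a fit with no filter, which called 1.37% of all probe sets, their changes were -0.30, -0.64 and -0.25 (adjusted p 0.751, 0.211 and 0.565).

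Birc5 encodes survivin, the subunit that binds the histone H3 mark made by haspin. Its levels were 11.11, 11.30 and 11.47 in XY and 11.04, 11.63 and 11.86 in XX. XX 1 was again the lowest array and XX 2 and XX 3 the highest, so that the XY values lay inside the XX range. The log2 change was -0.22 ± 0.24 (SE, 95% interval -0.79 to 0.35, limma adjusted p = 0.576). Without XX 1 it was -0.45 (adjusted p = 0.111), and without XX 3 it was -0.04 (adjusted p = 0.929).

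Cdca8 encodes borealin, which binds survivin and INCENP. Its bright probe sets, 1436847_s_at and 1428481_s_at, were higher in every XY array than in any XX array. Levels of 1436847_s_at were 13.43, 13.37 and 13.45 in XY and 13.32, 13.15 and 13.11 in XX, a change of 0.23 ± 0.15 (SE, 95% interval -0.13 to 0.58, limma adjusted p = 0.352). For 1428481_s_at the change was 0.30 ± 0.15 (adjusted p = 0.216). The dimmer 1428480_at, designed from the same source sequence as 1428481_s_at, had levels of 9.24, 9.19 and 9.13 in XY and 8.79, 9.82 and 9.49 in XX. It had the opposite sign, at -0.18 ± 0.27 (SE, adjusted p = 0.682), with XX 1 the lowest array. Among the scalings, 1428481_s_at had a change of 0.03 with the deposited values and -0.14 with arrays set to a common median, and 1436847_s_at had -0.03 and -0.19. With a variance trend over intensity, 1428481_s_at passed (0.30, limma adjusted p = 0.0375), which it did in 1 of 17 alternatives.

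Aurka, Birc5 and Plk1 shared the order in which XX 1 was lowest and XX 2 and XX 3 exceeded every XY array. That order was found in 3.48% of all 12442 genes. It was picked out after the values of these genes were seen, so the share is no test of the family. XX 1 also had an Actb ratio close to the XY arrays, and the part of RNA integrity or labelling in this order was not tested. In a fit that included the Actb ratio, the changes were 0.18 for Aurka, 0.22 for Birc5 and 0.42 for Plk1 (limma adjusted p 0.688, 0.637 and 0.283). The SD was larger among XX than XY arrays for 11 of the 15 tested probe sets of the family, and for 63.5% of all tested probe sets.

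**Figure D2:**
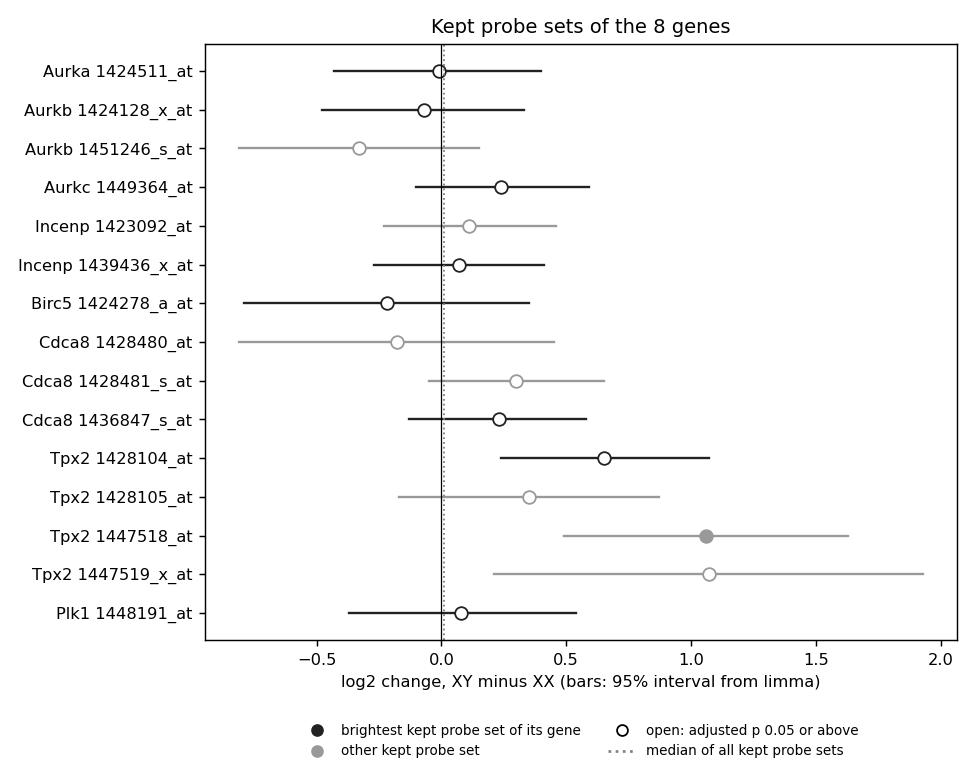
The log2 change, XY minus XX, of the 15 tested probe sets of the 8 genes, with 95% intervals from limma. Black marks the brightest probe set of each gene and grey the others, the filled point is the 1 probe set with an adjusted p under 0.05 (Tpx2 1447518_at, 1.06), and the dotted line is the median of all tested probe sets, 0.01.

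Tpx2, the microtubule-binding activator of Aurora A that nucleates spindle microtubules around chromosomes, had a positive change in each of its 4 tested probe sets, of which 1 passed. In pooled oocytes, a higher level in every oocyte and a high level in some of them cannot be told apart. The brightest, 1428104_at, had deposited intensities of 2340, 1447 and 1716 in XY and 1251, 1349 and 1930 in XX. Its normalized levels were 11.13, 10.92 and 11.09 in XY and 10.57, 10.16 and 10.44 in XX, so the groups did not overlap after normalization. The log2 change was 0.65 ± 0.18 (SE, 95% interval 0.24 to 1.07), a 1.57-fold difference whose limma adjusted p of 0.0579 missed the threshold. An upward change of at least this size was found in 13.5% of all genes.

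Probe set 1447518_at had deposited intensities of 198, 182 and 179 in XY and 94.5, 122 and 70.3 in XX, which did not overlap even before normalization. Its levels were 7.60, 7.88 and 7.75 in XY and 6.95, 6.93 and 6.18 in XX, with XX 3 the lowest. The log2 change was 1.06 ± 0.24 (SE, 95% interval 0.49 to 1.63, a 2.08-fold difference), and it passed (limma adjusted p = 0.0375).

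Probe set 1447519_x_at, designed from the same source sequence as 1447518_at, had levels of 7.34, 8.10 and 7.94 in XY and 7.48, 6.52 and 6.16 in XX. XX 1 lay above XY 1, and the change was 1.07 ± 0.37 (SE, limma adjusted p = 0.101). Probe set 1428105_at shares its source sequence with 1428104_at. Its levels of 8.76, 9.11 and 8.43 in XY and 8.40, 8.21 and 8.63 in XX overlapped, with a change of 0.35 ± 0.22 (SE, adjusted p = 0.322).

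The call for Tpx2 was not firm. In 1447518_at it was lost without XY 1 (limma adjusted p = 0.0716), XY 2 (0.109), XY 3 (0.0980), XX 2 (0.0729) or XX 3 (0.0714), and it passed without XX 1 (1.20, adjusted p = 0.0261). It was also lost with the deposited values (0.93, adjusted p = 0.0750), a common median (0.78, 0.0687), no filter (adjusted p = 0.0956) and the Actb ratio as a covariate (0.90, adjusted p = 0.222). A pseudocount of 1 (adjusted p = 0.0516) and the replicate block (0.0753) lost it too. In all, 1447518_at passed in 6 of 17 alternatives, with the change positive throughout. The brightest probe set, replaced in 1 of 19 alternatives by the mean of the 4 tested probe sets, passed in 7 of them, that mean included. Among the 7 were 1 row per gene by the brightest (limma adjusted p = 0.0450) and leaving out XX 1 (0.74, adjusted p = 0.0284). Its own changes were 0.11 to 0.74, and the mean of the 4 was at 0.78 (adjusted p = 0.0327). The theca and stroma marker sum, 368 to 612 in XY against 180 to 263 in XX, and the Actb ratio move with the same comparison. Dcn held 135 to 320 of that sum in XY and 20.1 to 90.2 in XX, and 5 of the 9 markers were under the filter. The blood marker sum was also higher in XY, at 150 to 154 against 103 to 138 in XX. The granulosa marker sums overlapped. Among the tested granulosa markers, Inha (log2 change 1.58), Fshr (0.89), Amhr2 (0.55), Hsd17b1 (0.40), Cyp11a1 (0.28), Foxl2 (0.11) and Has2 (0.06) were higher in XY. Kitl (-0.63), Nr5a2 (-0.16) and Inhbb (-0.07) were lower. The part of those cells in the Tpx2 difference was not tested.

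**Figure D3:**
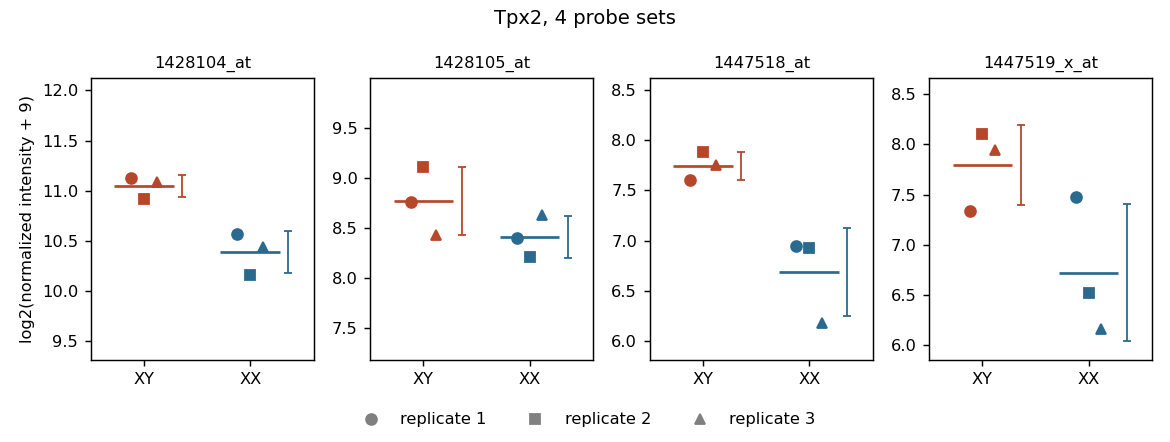
Levels of the 4 Tpx2 probe sets, as log2(normalized intensity + 9), in the 3 XY arrays (red, left) and the 3 XX arrays (blue, right). Points are arrays with 1 shape per replicate number, lines are means and bars the SD; XY lies above XX without overlap for 1428104_at and 1447518_at and overlaps it for 1428105_at and 1447519_x_at.

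The genes whose levels over the 6 arrays were most like those of Tpx2 1428104_at, among 12345 genes outside the lists used here, were Fbl, Rxylt1 and Soga3. Likeness was the root mean square difference of log2 levels after each gene was centred on its mean over the 6 arrays, and it was 0.052, 0.052 and 0.065. Fbl, the fibrillarin gene of the nucleolus, had levels of 8.60, 8.23 and 8.52 in XY and 8.01, 7.60 and 7.90 in XX. The log2 changes of Fbl, Rxylt1 and Soga3 were 0.61, 0.56 and 0.75 (limma adjusted p 0.0794, 0.0848 and 0.0441). As they were picked by likeness over the same 6 arrays, changes near that of Tpx2 follow from the choice and are no separate test.

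How the arrays were scaled moved every member. The median log2 change of all tested probe sets was 0.01 after quantile normalization, -0.14 with the deposited values, -0.29 with a common median and 0.15 with a common trimmed mean. The share of calls that were higher in XY was 48.4%, 41.3%, 18.3% and 65.1% under these scalings. Read against that median, the brightest Tpx2 probe set was at 0.64, 0.42, 0.40 and 0.44, the highest of the 8 genes in each. Aurkc was at 0.23, 0.11, 0.10 and 0.14, and Cdca8 at 0.22, 0.11, 0.10 and 0.13. Birc5 was the lowest, at -0.23, -0.43, -0.44 and -0.41. Plk1 changed side, at 0.07, -0.14, -0.15 and -0.11. Aurka was at -0.02, -0.24, -0.25 and -0.22, and Aurkb at -0.08, -0.20, -0.21 and -0.19. Incenp was at 0.06, 0.00, -0.02 and 0.02.

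**Figure D4:**
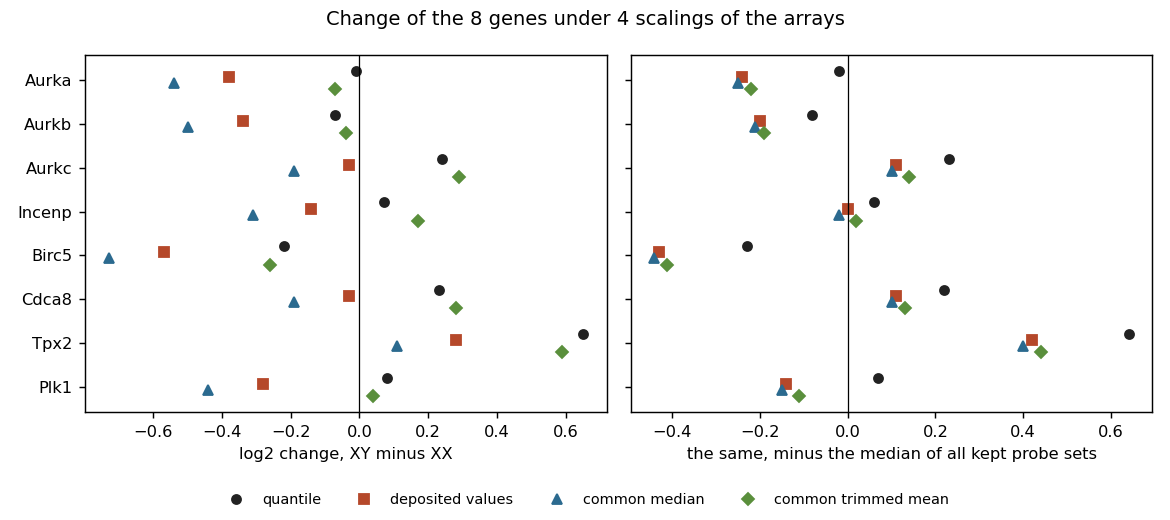
The log2 change, XY minus XX, of the brightest probe set of each of the 8 genes under 4 scalings of the arrays (left), and the same after subtracting the median of all tested probe sets under that scaling (right). Tpx2 is the rightmost gene under each scaling in the right panel, from 0.40 to 0.64, and Birc5 the leftmost, from -0.44 to -0.23.

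Genes around these kinases were read from 5 lists of activators, partners, targets and opposing phosphatases. Of 64 genes listed, 58 were tested, 2 rose and 5 fell, beside 6.57% and 4.32% of all 12442 genes. The median log2 change was 0.06, beside 0.07 for all genes. An unadjusted p under 0.05 was found for 17 of the 58, and groups that did not overlap for 26, beside 30.7% and 38.8% of all genes.

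Among activators and scaffolds, 0 of 9 rose and 1 fell. Haspin, the kinase whose mark on histone H3 recruits survivin to centromeres, had levels of 11.02, 10.68 and 11.01 in XY and 11.69, 11.75 and 11.75 in XX. All XY arrays were below all XX arrays, and the gene fell by 0.83 on the log2 scale (SE 0.17, limma adjusted p = 0.0255). The other 8 genes ranged from -0.28 for Tacc3, a spindle partner of Aurora A, to 0.35 for the centrosomal gene Cep192. The brightest Tacc3 probe set did not pass (limma adjusted p = 0.246). Tacc3 had 3 tested probe sets of 1 sign, and their mean, in the fit with 1 row per gene, passed (-0.58, limma adjusted p = 0.0327). That was its 1 call in 19 alternatives. For its brightest probe set the change was -0.66 with the deposited values and -0.82 with a common median (adjusted p 0.189 and 0.0506). The shugoshin genes Sgo1 and Sgo2a, which protect centromeric cohesion, had changes of 0.13 and 0.00, and Bora, which helps Aurora A activate Plk1, had 0.22 (adjusted p = 0.487).

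Among 12 partners of Tpx2 in spindle assembly, 1 rose and 0 fell. Haus1, a subunit of augmin, which branches new microtubules from old ones, had levels of 10.60, 10.52 and 10.59 in XY and 9.82, 8.60 and 8.72 in XX. XX 1 again lay between XY and the other XX arrays, and the change was 1.53 ± 0.32 (SE, limma adjusted p = 0.0297). In the fit that included the Actb ratio it was 0.81 (adjusted p = 0.136). Ran, the GTPase that frees TPX2 from importins, was chosen after its values were seen. It had a change of 0.63 (adjusted p = 0.0672), with 5 tested probe sets of 1 sign. With the deposited values it was 0.33 and with a common median 0.17 (adjusted p 0.497 and 0.663). The importin genes Kpna2 and Kpnb1 had -0.01 and 0.39, and 2 of the 3 tested Kpnb1 probe sets had the opposite sign to that value.

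Among 13 targets and partners of the passenger complex, 0 rose and 2 fell. Kif23, a kinesin of the central spindle, had levels of 11.87, 11.82 and 11.81 in XY and 12.36, 12.66 and 12.77 in XX, and fell by 0.77 on the log2 scale (SE 0.17, limma adjusted p = 0.0345). Ect2, the exchange factor that activates RhoA for cytokinesis, had levels of 10.32, 10.34 and 10.32 in XY and 10.87, 11.44 and 11.26 in XX. It fell by 0.86 on the log2 scale (SE 0.19, adjusted p = 0.0329). In both genes every XY array was below every XX array, with XX 1 the nearest to XY. Racgap1, the partner of Kif23 in centralspindlin, was chosen after its values were seen and had a change of 0.53 (adjusted p = 0.0735). Its change was 0.00 with a common median. The centromeric kinesin gene Kif2c, a substrate of Aurora B, had a change of 0.09 in its brightest probe set. Of its 4 tested probe sets, 3 had the opposite sign.

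Among 11 targets and relatives of Plk1, 1 rose and 1 fell. Plk3, a stress-responsive polo-like kinase, had levels of 6.98, 6.42 and 6.98 in XY and 5.73, 5.46 and 5.78 in XX. It rose by 1.14 ± 0.21 (SE, limma adjusted p = 0.0216), and its deposited intensities were 71.3 to 128 in XY, against 34.9 to 47.8 in XX. Fbxo5, the inhibitor of the anaphase-promoting complex that Plk1 marks for destruction, fell by 0.83 on the log2 scale (SE 0.17, adjusted p = 0.0266). Its deposited intensities were 2046, 1625 and 1781 in XY and 2842, 4777 and 5256 in XX, and every XY array was below every XX array. The phosphatase gene Cdc25b, needed for meiotic resumption, had a change of 0.40, and the kinase gene Wee1 had -0.92 ± 0.62 (SE, adjusted p = 0.353).

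Among 13 phosphatase genes that oppose the Aurora kinases and Plk1, 0 rose and 1 fell. Ppp1cb, a catalytic subunit of protein phosphatase 1, had levels of 8.36, 8.56 and 8.40 in XY and 9.11, 9.28 and 9.25 in XX. It fell by 0.77 on the log2 scale (SE 0.15, limma adjusted p = 0.0262). The call was lost with the mean of its 4 tested probe sets (-0.71 ± 0.22, SE, adjusted p = 0.0690) and with the deposited values (-1.06, adjusted p = 0.0589). Ppp1cb passed in 9 of 19 alternatives. The sister subunits Ppp1ca and Ppp1cc had changes of -0.20 and 0.55 (adjusted p 0.430 and 0.0886). The other of the 2 tested Ppp1cc probe sets had the opposite sign, and the change of Ppp1cc was 0.24 with the mean of both, 0.22 with the deposited values and 0.05 with a common median. The 5 B56 subunits of protein phosphatase 2A, which dock at centromeres, ranged from -0.19 to 0.30 by their brightest probe sets. For Ppp2r5c (0.19), 4 of 6 tested probe sets had the opposite sign.

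The 7 calls were mostly lost when an array other than XX 1 was left out, as were most calls over all probe sets. Without XY 1, XY 3, XX 2 or XX 3, 0 of the 7 genes or other list members passed limma. Without XY 2 there was 1, and without XX 1 there were 14 of 57 tested, 6 higher and 8 lower. Of all tested probe sets, 23.1% were called without XX 1 and 10.5% with all arrays. Leaving out any other array gave 2.35% to 4.26%. All 7 genes kept their sign in every alternative run. In the fit that included the Actb ratio 0 passed, where 0.0739% of all tested probe sets did.

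**Figure D5:**
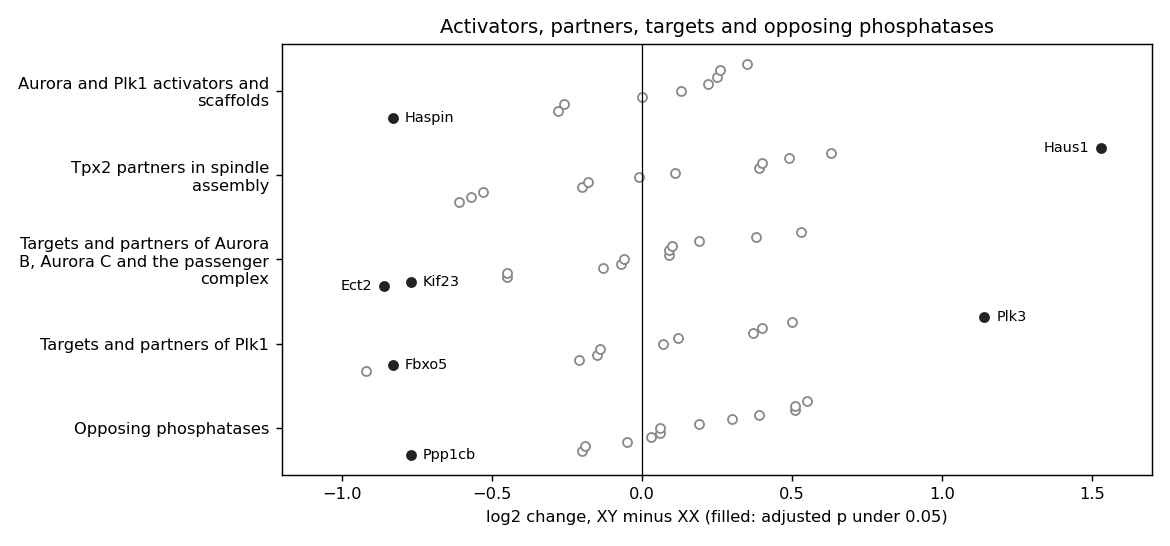
The log2 change, XY minus XX, of 58 genes in 5 lists around the Aurora kinases and Plk1, 1 point per gene by its brightest tested probe set. Filled points have an adjusted p under 0.05: Haus1 and Plk3 lie to the right of 0, and Haspin, Ect2, Kif23, Fbxo5 and Ppp1cb to the left.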

How the data were processed

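The authors deposited linear intensities, 1 for each probe set on each array, made with MAS5 per the submitters' processing notes. Its version, its target value and any detection calls were not used here, as no source gave them, so no probe set is called absent. The values did not share a common level, so the 6 arrays were quantile-normalized, which hides any change in total mRNA. Values were log2(intensity + 9), with 9 taken from the 25th percentile of all deposited intensities. Fold changes on this scale understate changes of dim genes. After 64 control probe sets were set aside, 45037 remained, of which 34945 had 1 symbol, 932 several and 9160 none listed. By gene ID 34741 matched the RefSeq gene table of GRCm38.p6. Probe sets that reached the median of an array on 3 or more arrays were kept, which left 22997 probe sets of 12442 genes, each gene read by its brightest one. XY was compared with XX in 1 fit over all kept probe sets with limma 3.58.1 in R 4.3.3 (lmFit, eBayes, Benjamini-Hochberg, adjusted p of 0.05). The limma fit, but not the normalization or the filter, was tested on simulated data. Precision is limited by having 3 arrays per group. Samples with the same replicate number deviated from their group means with correlations of -0.13, -0.01 and -0.06, so the numbers were not treated as pairs.

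The members and lists were chosen with earlier results of these data known. Named genes are all members, the list genes past the threshold and the 3 genes most like the member with the smallest p. Others named from the lists are examples chosen after their values were seen. Alternatives covered the scaling, pseudocount, filter, rows per gene, array weights, the variance model, a replicate block, the Actb control ratio and leaving out each array.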

Additional observations from a re-analysis of the deposited data

How the results depend on the processing

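With 3 arrays a group, the counts of calls moved with most settings, and the cause was not tested. Leaving out each array in turn gave 518 to 5098 called probe sets in all (2413 with all arrays), 0 to 1 member genes, 0 to 3 member probe sets and 0 to 14 list genes. The highest of each was without XX 1. The replicate block gave 636 called probe sets, 0 member probe sets and 1 list gene. The Actb covariate gave 17, 0 and 0, no filter 617, 0 and 0, and array weights 5327, 3 and 14. Trended variance gave 3879 called probe sets and 4 member probe sets, and the deposited values 1378 and 0. A common median or a pseudocount of 1 gave 0 member probe sets, and a pseudocount of 32 or a 70th percentile filter gave 2. Of the 8 member genes, 1 passed with a pseudocount of 32, the 70th percentile filter, either fit with 1 row per gene, trended variance or array weights, and it was Tpx2 each time.

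Signs turned only in member probe sets that had not passed with the settings of the report. Of these, Cdca8 1428481_s_at passed with trended variance (0.30, limma adjusted p = 0.0375), the only call outside Tpx2 among the member probe sets in the alternatives run. With the deposited values the probe sets whose sign turned were Aurkc (-0.03), Incenp (-0.22 and -0.14), Cdca8 1436847_s_at (-0.03) and Plk1 (-0.28). With a common median they were Aurkc (-0.19), Incenp (-0.38 and -0.31), Cdca8 (-0.14 and -0.19), Tpx2 1428105_at (-0.09) and Plk1 (-0.44). Array weights turned Plk1 (-0.03), and the Actb covariate turned Aurka (0.18), Birc5 (0.22) and Cdca8 1428480_at (0.34). Leaving out arrays gave -0.14 to 0.06 for Aurka, -0.14 to 0.03 for Aurkb 1424128_x_at, -0.47 to 0.05 for Cdca8 1428480_at and -0.09 to 0.17 for Plk1. Of 271 member values under the alternatives, 226 kept sign and side of the threshold.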
